A study of Mus musculus with 18 samples.

Results

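The genes described here are Vdr, Cyp2ab1 and Lrrn4cl, 3 of the 20295 genes in the count table of mouse brown adipocytes. They were picked by symbol because their induction by the β-adrenergic agonist isoproterenol (ISO) was larger when the lipases were inhibited, so their ISO values are given as a description and carry no p-value. The cells were BAT-LgT, a single wild-type line of mouse brown preadipocytes immortalised with SV40 large T antigen and differentiated in culture, and all groups share this origin. On day 7 they were left without inhibitor or given inhibitors of ATGL and HSL together for 1 h, and Vehicle (DMSO), 100 nM ISO or SR-3420 was then applied for 3 h. The compound SR-3420 binds ABHD5, the co-activator of ATGL, and starts lipolysis without a β-adrenergic signal. The labels give its dose as 10 µM and the text of the study gives another, and which applied here was not settled. The 3 groups without inhibitors are called Vehicle, ISO and SR-3420, and the name of a group with inhibitors has Lipase Inh. in front of it (Lipase Inh. + ISO, for example). Each of the 6 groups holds 3 libraries.

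ISO binds β-adrenergic receptors, which raise cAMP and activate protein kinase A. The kinase acts on the lipid droplet, where ATGL and HSL release fatty acids, and on transcription factors of the CREB family in the nucleus. Vdr encodes the vitamin D receptor, a nuclear receptor that binds the hormone form of vitamin D and pairs with a retinoid X receptor (Rxra, Rxrb or Rxrg) on DNA. Cyp2ab1 encodes a member of cytochrome P450 family 2, haem enzymes that oxidise lipids and foreign compounds. Lrrn4cl is named for its likeness to the C-terminal end of Lrrn4, a leucine-rich repeat membrane protein.

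The table places all 3 genes on build mm9. Vdr (NM_009504) lay on chromosome 15 from 97684858 to 97738727 on the minus strand, and 4354 bases of it were counted. Cyp2ab1 (NM_183158) lay on chromosome 16 from 20308460 to 20325477 on the minus strand with 2735 counted bases. Lrrn4cl (NM_001013019) lay on chromosome 19 from 8925275 to 8928399 on the plus strand with 2583 counted bases. In GENCODE vM1, which uses the same build, the longest transcripts had 10, 8 and 2 exons, and no other annotated gene overlapped any of the 3 spans, so reads of an antisense or overlapping gene in that annotation could not enter their counts.

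The promoters of Vdr and Cyp2ab1, 2 of the 3 genes matched in the RefSeq promoter table, are shown because both genes were highest in the same 2 groups. Each covers 250 bases before to 50 bases after the start (build GRCm38.p6, minus strand, printed 5′ to 3′). Capitals mark the searched motifs, which were TGACGTCA and its part TGACG (cAMP response element), GGGCGG (GC box), AGGTCA (nuclear receptor half-site) and AAAGGTCA, which contains it, on both strands.
Vdr, chr15:97908247-97908546: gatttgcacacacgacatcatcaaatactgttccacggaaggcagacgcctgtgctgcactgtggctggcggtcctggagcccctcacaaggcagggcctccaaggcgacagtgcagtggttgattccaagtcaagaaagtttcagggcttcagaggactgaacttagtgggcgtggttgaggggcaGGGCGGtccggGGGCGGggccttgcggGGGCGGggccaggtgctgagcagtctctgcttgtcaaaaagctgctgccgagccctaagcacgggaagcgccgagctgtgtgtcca
Cyp2ab1, chr16:20325355-20325654: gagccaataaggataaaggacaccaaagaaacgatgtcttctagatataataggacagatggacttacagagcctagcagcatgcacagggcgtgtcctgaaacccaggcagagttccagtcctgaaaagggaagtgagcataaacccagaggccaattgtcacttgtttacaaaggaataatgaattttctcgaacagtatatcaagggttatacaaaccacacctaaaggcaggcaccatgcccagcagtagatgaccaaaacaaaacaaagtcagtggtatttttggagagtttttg

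The Vdr promoter held 3 GC boxes, at -63, -52 and -36 from the start, and had a GC content of 61.3%. The Cyp2ab1 promoter had a GC content of 43.0% and held none of the motifs. Over 32851 promoters of this length the median GC content was 52.7%, and 35.7% held a GC box, 20.8% TGACG, 1.79% TGACGTCA, 16.3% AGGTCA and 1.51% AAAGGTCA. Neither window held TGACG or AGGTCA, which says only that these letters are not in these bases.

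Depth lay between 10310447 and 21205032 counts in 17 of the 18 libraries. Lipase Inh. + SR-3420 replicate 2 stood apart with 4263755 counts, of which a single gene, Lars2, held 18.3%. All 3 genes passed the filter on low counts that left 12156 genes for testing. Brown adipocyte markers summed to between 11022 and 16968 CPM (read count scaled to library size with TMM factors) per library, against at most 6.30 for macrophage and 0.661 for endothelial markers. In Vehicle the largest terms of the brown adipocyte sum were Adipoq, at a mean of 3593 CPM, and Fabp4, at 2603. Ucp1, the uncoupling protein of brown fat, was at 2.69 CPM there and Prdm16 at 29.5. The size of this sum therefore does not by itself show brown identity. Preadipocyte and fibroblast markers summed to 89.6 to 139 CPM and skeletal muscle markers to 10.1 to 14.3. Because these are bulk samples, more transcript per cell and more cells with the transcript cannot be told apart.

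Vdr was low in all groups without ISO. Its CPM was 10.6, 11.2 and 12.8 in Vehicle, 12.1, 10.0 and 11.7 in SR-3420, 11.4, 12 and 12.3 in Lipase Inh. + Vehicle, and 10.0, 10.9 and 10.6 in Lipase Inh. + SR-3420. ISO took it to 90.6, 104 and 83.0 CPM. With the inhibitors present ISO took it to 831, 816 and 822 CPM. The lowest ISO library thus lay far above all 12 libraries without ISO, and the lowest Lipase Inh. + ISO library far above the highest ISO library. In means, Vdr stood at 11.5 ± 1.15 CPM in Vehicle, 92.6 ± 10.7 in ISO and 823 ± 7.36 in Lipase Inh. + ISO (SD, n = 3), an 8.04-fold rise with ISO alone and a 69-fold rise with ISO under inhibitors. The raw counts behind these values were 145 to 167 in Vehicle and 8919 to 16210 in Lipase Inh. + ISO.

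Cyp2ab1 behaved differently with ISO alone. Its CPM was 9.98, 8.66 and 12.5 in Vehicle and 20.8, 17.8 and 20.7 in ISO, a 1.90-fold rise from 10.4 ± 1.97 to 19.8 ± 1.71 (SD, n = 3). Under inhibitors it went from 9.70, 5.77 and 10.4 CPM with Vehicle to 149, 157 and 137 with ISO, a 17.1-fold rise from 8.62 ± 2.50 to 148 ± 10.5. The 2 groups with ISO again did not overlap with each other or with any other library, but the step made by ISO alone was small for Cyp2ab1 and its log2 fold change of 0.94 (SE 0.20) stayed under the fold threshold of 1 used for calls. SR-3420 gave 11.7, 11.1 and 14.8 CPM, and Lipase Inh. + SR-3420 gave 9.37, 5.60 and 13.7. Relative to its mean the spread was widest in this last group (coefficient of variation 42.6%), where the value of 5.60 rests on 21 counts (exact Poisson 95% interval from 3.46 to 8.55 CPM, counting error only).

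Lrrn4cl was the lowest of the 3 at rest. Its CPM was 4.87, 5.72 and 4.32 in Vehicle, 30.0, 31.0 and 29.6 in ISO, 7.15, 7.42 and 5.37 in Lipase Inh. + Vehicle, and 140, 139 and 128 in Lipase Inh. + ISO. ISO raised the mean 6.08-fold without inhibitors, from 4.97 ± 0.704 to 30.2 ± 0.695 CPM, and 20.4-fold with them, from 6.64 ± 1.11 to 136 ± 6.82 (SD, n = 3). The 3 ISO libraries lay close together and apart from all others, as did the 3 Lipase Inh. + ISO libraries. SR-3420 gave 4.19, 4.46 and 4.35 CPM, and Lipase Inh. + SR-3420 gave 7.84, 7.99 and 6.74.

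The order of the groups was therefore shared at the top, with Lipase Inh. + ISO above ISO above everything else. Among the genes tested, 3.84% had their 6 ISO libraries arranged this way, and all 3 genes were picked for it. Below these 2 groups the order differed between genes, and in no gene did the 4 remaining groups separate in full. For Vdr the means of Lipase Inh. + Vehicle (11.9 CPM), Vehicle (11.5), SR-3420 (11.3) and Lipase Inh. + SR-3420 (10.5) each overlapped in range with the next. For Cyp2ab1 the ranges of SR-3420 (mean 12.6), Vehicle (10.4), Lipase Inh. + SR-3420 (9.57) and Lipase Inh. + Vehicle (8.62) likewise overlapped from each group to the next. For Lrrn4cl Lipase Inh. + SR-3420 (7.53) overlapped with Lipase Inh. + Vehicle (6.64), which overlapped with Vehicle (4.97), which overlapped with SR-3420 (4.33).

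**Figure D1:**
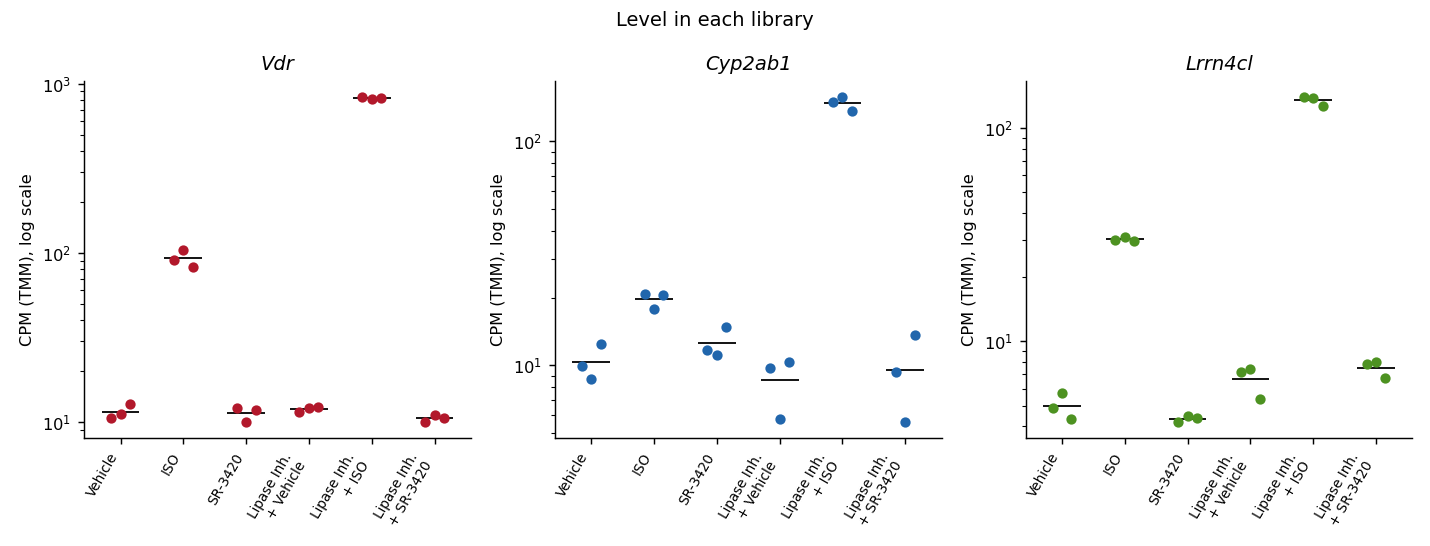
CPM of Vdr, Cyp2ab1 and Lrrn4cl in each of the 18 libraries (points, log axis) with the mean of each group (line), 3 libraries per group. The Lipase Inh. + ISO libraries lie highest in every panel (816 to 831 CPM for Vdr), and the ISO libraries of Cyp2ab1 (17.8 to 20.8 CPM) lie only a little above its libraries without ISO.

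Compared per counted length, as RPKM, the order of the 3 genes changed between groups. In Vehicle Cyp2ab1 had the highest level at 3.80 ± 0.719 RPKM, followed by Vdr at 2.65 ± 0.264 and Lrrn4cl at 1.92 ± 0.272 (SD, n = 3). In ISO the order became Vdr at 21.3 ± 2.47, Lrrn4cl at 11.7 ± 0.269 and Cyp2ab1 at 7.23 ± 0.625. In Lipase Inh. + ISO Vdr reached 189 ± 1.69 RPKM, while Cyp2ab1 at 54 ± 3.84 and Lrrn4cl at 52.5 ± 2.64 came level, within the spread of either.

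Both ISO comparisons have control groups of their own, and the interaction compares them. In levels, Lipase Inh. + ISO exceeded ISO 8.89-fold for Vdr, 7.47-fold for Cyp2ab1 and 4.48-fold for Lrrn4cl. On the log2 scale the change with ISO was 3.02 (SE 0.09) for Vdr and 6.11 (SE 0.09) under inhibitors, and the difference between both changes, the interaction, was 3.09 (SE 0.13). For Cyp2ab1 the change went from 0.94 to 4.07 (SE 0.19) with an interaction of 3.14 (SE 0.27). For Lrrn4cl it went from 2.60 (SE 0.12) to 4.36 (SE 0.11) with an interaction of 1.77 (SE 0.16). Vdr and Cyp2ab1 thus had interactions of the same size within their errors, although ISO alone had moved Vdr much more.

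By interaction Cyp2ab1 ranked 11, Vdr 12 and Lrrn4cl 80 of 12156. The genes next to them in rank were Ikzf4, at 10 with 3.24 (SE 1.05), Rhbg, at 13 with 2.98 (SE 1.19), and Klhdc7a and Ffar4, at 79 and 81 with 1.78 and 1.76. The errors of Ikzf4 and Rhbg were several times those of Vdr and Cyp2ab1. By the change with ISO alone the ranks were 37 for Vdr, 58 for Lrrn4cl and 738 for Cyp2ab1. By the change with ISO under inhibitors they were 8, 17 and 23. Of all genes tested, 2.18% were called higher by the interaction (adjusted p-value up to 0.05, log2 difference from 1 upwards) and 4.71% lower, a contrast that the choice of the genes had used.

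Whether the genes respond to lipolysis itself, or to the inhibitors themselves, was asked in the comparisons that the choice had not used directly. Each of them shares the Vehicle or the Lipase Inh. + Vehicle libraries, or both, with the ISO comparisons behind the choice, so these tests are not free of it. None of the 12 tests passed in edgeR's quasi-likelihood test with Benjamini-Hochberg adjustment over 12156 genes (1 had an unadjusted p under 0.05, and DESeq2 called 0). SR-3420 against Vehicle called 6.33% of all genes, Lipase Inh. + Vehicle against Vehicle 0.0494% and Lipase Inh. + SR-3420 against Lipase Inh. + Vehicle 0.296%. The interaction of SR-3420 with the inhibitors called 3.82%. At any fold change, 51.4% of genes passed the adjusted p-value with SR-3420.

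The log2 difference of SR-3420 from Vehicle was -0.02 for Vdr (95% interval -0.24 to 0.20, adjusted p = 0.955). It was 0.30 for Cyp2ab1 (-0.12 to 0.71, adjusted p = 0.226) and -0.20 for Lrrn4cl (-0.50 to 0.10, adjusted p = 0.252). The upper bounds of all 3 intervals lay below 1, so an increase with SR-3420 as large as that of Vdr or Lrrn4cl with ISO is outside them. The same interval for Cyp2ab1 reached into the interval of its change with ISO, which began at 0.53. ISO levels were 8.22-fold those of SR-3420 for Vdr, 6.97-fold for Lrrn4cl and 1.57-fold for Cyp2ab1.

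The difference with the inhibitors alone was 0.06 for Vdr (95% interval -0.16 to 0.28, adjusted p = 0.875) and -0.24 for Cyp2ab1 (-0.67 to 0.20, adjusted p = 0.714). Lrrn4cl was the one gene with an interval apart from 0, at 0.40 (0.12 to 0.68), with an unadjusted p of 0.00776 and an adjusted p of 0.219, so it did not pass. Its 6 libraries with inhibitors and without ISO lay between 5.37 and 7.99 CPM and its 6 libraries with neither between 4.19 and 5.72. This difference is small beside the 20.4-fold rise with ISO under inhibitors. With SR-3420 under inhibitors the difference was -0.19 for Vdr (-0.43 to 0.04, adjusted p = 0.437), 0.28 for Cyp2ab1 (-0.17 to 0.73, adjusted p = 0.593) and 0.16 for Lrrn4cl (-0.12 to 0.45, adjusted p = 0.615). All 3 Vdr libraries with SR-3420 and inhibitors lay below those with inhibitors alone, as did 8.19% of the genes tested.

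The interaction of SR-3420 with the inhibitors was -0.17 (-0.49 to 0.14, adjusted p = 0.425) for Vdr, -0.02 (-0.63 to 0.60, adjusted p = 0.978) for Cyp2ab1 and 0.37 (-0.04 to 0.78, adjusted p = 0.177) for Lrrn4cl. None of these 3 differences was detectable at this depth and number of libraries. Without the shallow library the difference with SR-3420 under inhibitors was -0.21 for Vdr, 0.42 for Cyp2ab1 and 0.14 for Lrrn4cl, with adjusted p-values of 0.467, 0.354 and 0.706. Cyp2ab1 turned on a single library here, since its value was -0.09 (adjusted p = 0.943) without Lipase Inh. + SR-3420 replicate 3.

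**Figure D2:**
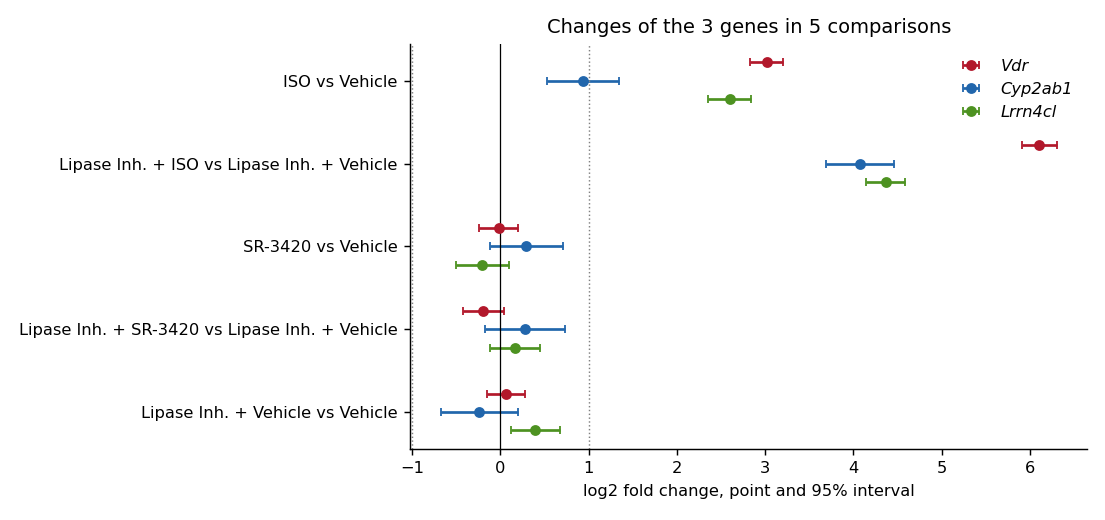
Log2 fold changes of Vdr, Cyp2ab1 and Lrrn4cl (points) with 95% intervals (bars) in 5 comparisons of 3 against 3 libraries, with dotted lines at the fold threshold of 1 in either direction. The ISO changes, which chose the genes, reach 6.11 for Vdr under inhibitors, while all 9 points without ISO lie between -0.24 and 0.40.

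The genes of vitamin D signalling were examined next, since a receptor acts through partners and targets. The list of 34 genes holds the receptor, its partners, the enzymes and carriers of the hormone, cofactors and known targets, and 19 of them had counts enough for testing. Leaving out Vdr itself, ISO raised 3 of 18 and lowered 1, against 5.03% and 4.07% of all genes tested. Under inhibitors ISO raised 1 and lowered 3, against 5.43% and 7.63%. By the interaction 0 of 18 were higher and 1 was lower, against 2.18% and 4.71% of all genes tested. The counts were the same with DESeq2 and at an unadjusted p under 0.05. In so short a list they are not far from these shares. The median interaction of the list was -0.24 and that of all genes 0.01.

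Per counted length Rxra was the most abundant of the 3 partner genes in each group except Lipase Inh. + ISO, where Rxrb was higher in all 3 libraries. In mean CPM Rxra stayed above Rxrb there as well, at 127 against 75.8. Rxra moved against Vdr. It fell by 1.17 on the log2 scale with ISO (SE 0.07, adjusted p = 1.7e-11) and by 1.48 under inhibitors (SE 0.07, adjusted p = 2.2e-13). Its level per length was 78.0, 70.3 and 70.6 RPKM in Vehicle, 33.0, 33.0 and 31.4 in ISO, and 23.6, 23.8 and 24.8 in Lipase Inh. + ISO. None of these 3 groups overlapped with another, and the share of all genes separated in this way was not counted. Rxrb had -0.55 with ISO (adjusted p = 0.00092) and -0.28 under inhibitors (adjusted p = 0.061), and Rxrg had 0.59 (adjusted p = 0.014) and 0.09 (adjusted p = 0.73), all within the fold threshold.

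Receptor and partner transcripts consequently changed places. In Vehicle Rxra exceeded Vdr 27.9 ± 4.10-fold per length (SD, n = 3). In ISO the excess was 1.54 ± 0.140-fold. In Lipase Inh. + ISO Vdr exceeded Rxra 7.86 ± 0.250-fold, and it exceeded the sum of Rxra, Rxrb and Rxrg 3.33 ± 0.178-fold. In the remaining groups Rxra stayed above Vdr in each library, by 12.5-fold to 18-fold in SR-3420, 23.1-fold to 26.0-fold in Lipase Inh. + Vehicle and 26.8-fold to 33.1-fold in Lipase Inh. + SR-3420. SR-3420 lowered Rxra by 0.91 (adjusted p = 1.1e-09), under the fold threshold, while the interval for Vdr spanned 0. These are transcript levels, and protein was not measured in these files.

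**Figure D3:**
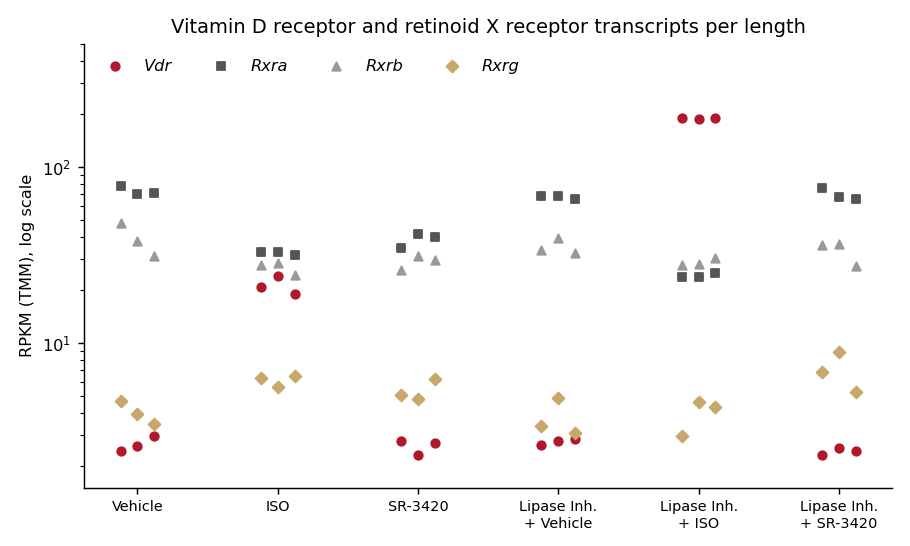
Levels per counted length (RPKM, log axis) of Vdr and of its partner genes Rxra, Rxrb and Rxrg in each library, 3 libraries per group. Vdr is the lowest of the 4 in Vehicle (2.42 to 2.94 RPKM) and the highest in Lipase Inh. + ISO (188 to 191 RPKM), where Rxra is at its lowest (23.6 to 24.8 RPKM).

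Known targets of the receptor were mostly scarce in these cells. Cyp24a1, which breaks down the hormone and is a classical target, had at most 3 counts in any library, where Vdr had up to 16210. Of other intestinal and renal targets, Trpv6 and Calb1 had at most 3 counts, S100g at most 8 and Trpv5 0 in every library. A count of 3 corresponds to between 0.152 and 0.799 CPM depending on the library, so levels under this could not be seen. Thbd, which encodes thrombomodulin, rose by 1.82 with ISO (SE 0.10, adjusted p = 4.0e-12) and by 1.98 under inhibitors (SE 0.10, adjusted p = 5.0e-13), and its interaction of 0.16 (adjusted p = 0.41) did not pass. Spp1, which encodes osteopontin, was raised by SR-3420, by 1.08 (SE 0.10, adjusted p = 1.9e-08), and had 0.76 with ISO and 0.12 under inhibitors. Its interaction was -0.64 (SE 0.15, adjusted p = 0.0017), within the fold threshold. Cd14 had 0.11 with ISO and 0.81 under inhibitors (SE 0.25, adjusted p = 0.0076), within the fold threshold, and its interaction of 0.71 (SE 0.35, adjusted p = 0.14) did not pass.

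The enzymes that make the hormone were scarce or fell. Cyp27a1, a vitamin D and sterol hydroxylase, changed by -0.45 with ISO (SE 0.08, adjusted p = 4.5e-05) and fell by 1.12 under inhibitors (SE 0.08, adjusted p = 8.1e-11). Cyp27b1, which makes the active form, had at most 20 counts, and Cyp2r1, another activating enzyme, at most 7. Cubn, a receptor in the uptake of the vitamin's carrier, fell by 1.05 under inhibitors (SE 0.44, adjusted p = 0.048) on at most 26 counts. Among cofactors Ncoa1, a co-activator of nuclear receptors, rose by 1.22 with ISO (SE 0.07, adjusted p = 4.7e-12) with 0.06 under inhibitors, and it was the 1 gene of the list called lower by the interaction, at -1.16 (SE 0.10, adjusted p = 8.9e-09). The remaining call with ISO was Slc34a2, a phosphate transporter, at 2.92 (SE 1.11, adjusted p = 0.032) on at most 17 counts.

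Among targets of cAMP and CREB, the genes called by the interaction moved the other way from Vdr. Of 25 tested genes of this list ISO raised 19 and lowered 1, against 5.03% and 4.07% of all genes. Under inhibitors it raised 12 and lowered 0, against 5.43% and 7.63%. By the interaction 10 of 25 were called lower, against 4.71% of all genes, and 0 were called higher, against 2.18%. At an unadjusted p under 0.05 the count of higher genes was 2, and DESeq2 called 1. The median change was 1.70 with ISO, 1.04 with ISO under inhibitors and -0.71 for the interaction, where all genes had 0.01. The largest reductions were those of Atf3, a stress-induced transcription factor, at -3.86 (SE 0.22, adjusted p = 2.8e-11), Nr4a1, an orphan nuclear receptor, at -2.56 (SE 0.15, adjusted p = 5.0e-11), and Pck1, an enzyme of glyceroneogenesis, at -2.42 (SE 0.25, adjusted p = 1.3e-07). SR-3420 without ISO raised 14 of the 25 and lowered 1, where 6.33% of all genes were called in either direction. Atf3, Nr4a1 and Pck1 were among those raised, by 5.31, 3.05 and 3.10. The interaction of SR-3420 with the inhibitors called 11 of the 25 lower and 1 higher, where 3.82% of all genes were called. Many genes of this list thus also moved with SR-3420, and the list does not stand for ISO alone.

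A few members of that list leaned the way of Vdr, Cyp2ab1 and Lrrn4cl without being called with TMM factors. With total-count scaling 3 genes of the list were called higher by the interaction, and these need not be the genes described next. Rgs2 also had a positive interaction just under the fold threshold, at 0.95 (SE 0.17, adjusted p = 0.00016). Unlike the 3 genes it went down, with -1.49 with ISO and -0.54 under inhibitors. Crem, a transcription factor of the cAMP pathway with an inducible repressor form, rose by 1.61 with ISO and 2.49 under inhibitors, and its interaction of 0.88 (SE 0.15, adjusted p = 0.00011) lay under the fold threshold. Pde10a, a phosphodiesterase, rose by 2.91 and 4.29, and its interaction of 1.38 (SE 0.55, adjusted p = 0.060) missed the adjusted threshold. Ucp1, the uncoupling protein of brown fat, rose by 7.08 and 8.20 with an interaction of 1.11 (SE 0.49, adjusted p = 0.088). Ppargc1a, the co-activator of the thermogenic programme, rose by 3.83 and 1.85, with an interaction of -1.99 (SE 0.12, adjusted p = 3.6e-11).

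**Figure D4:**
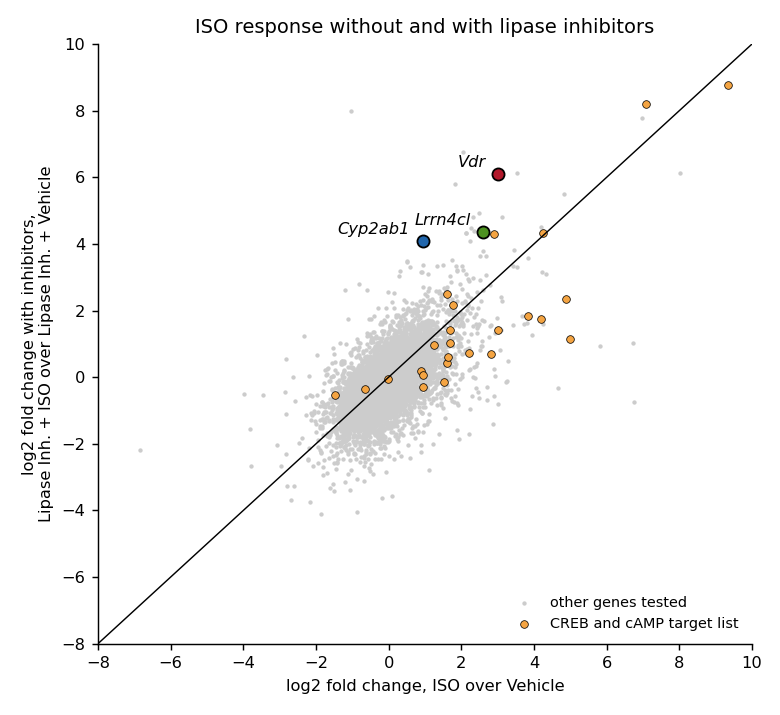
Log2 fold change with ISO alone (horizontal) and with ISO under lipase inhibitors (vertical) for the 12156 genes tested, with the line of equal change. Vdr, Cyp2ab1 and Lrrn4cl lie above the line, by their choice, whereas 10 of the 25 tested genes of the CREB and cAMP target list were called below it.

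In the P450 family 2 the response of Cyp2ab1 was shared in part by Cyp2u1. Among 48 family members counted, 19 had no read in any library, 35 had at most 3 counts, and 9 were tested. Leaving out Cyp2ab1, ISO raised 1 of 8 without inhibitors (Cyp2s1, by 2.14 on at most 31 counts) and raised 2 and lowered 1 with them. Over all genes ISO raised 5.03% without inhibitors, and raised 5.43% and lowered 7.63% with them. Of these 8, 1 was called higher by the interaction and 1 lower, against 2.18% and 4.71% of all genes, and in so short a list 1 call is not far from these shares. Cyp2u1, a fatty acid hydroxylase, changed by 0.68 with ISO (SE 0.17, adjusted p = 0.0018) and rose by 1.95 under inhibitors (SE 0.16, adjusted p = 1.3e-09), with an interaction of 1.28 (SE 0.23, adjusted p = 0.00022). Unlike Cyp2ab1, it passed the test with SR-3420, in the negative direction and within the fold threshold, at -0.83 (SE 0.18, adjusted p = 0.00058). Cyp2e1, a P450 of ethanol metabolism, was called lower by the interaction at -3.47 (SE 0.92, adjusted p = 0.00598), on at most 18 counts.

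Cyp2ab1 took over the largest share of the family's transcripts. Per length it made up 16.8%, 13.9% and 19.9% of the summed family RPKM in the Vehicle libraries, where it ranked 3 behind Cyp2d22 and Cyp2u1. In ISO it made up 22.6%, 21.8% and 25.1% and stayed at rank 3. In Lipase Inh. + ISO it made up 59.8%, 62.6% and 58.5% and ranked 1 in each library. There its 54 ± 3.84 RPKM compared with 21.0 ± 0.769 for Cyp2u1 and 9.98 ± 0.860 for Cyp2d22 (SD, n = 3). The family sum rose from 22.5 ± 0.713 RPKM in Vehicle to 31.3 ± 2.16 in ISO and 89.4 ± 3.63 in Lipase Inh. + ISO.

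In the groups without ISO, Lrrn4cl had 1 relative by name with a level near its own. Lrrn4cl stood at 4.97 CPM in Vehicle, 30.2 in ISO and 136 in Lipase Inh. + ISO. Lrrn4 stood at 7.23 CPM in Vehicle, 7.61 in ISO and 14.4 in Lipase Inh. + ISO. Its change with ISO was 0.06 (SE 0.15, adjusted p = 0.81), and under inhibitors 0.82 (SE 0.13, adjusted p = 2.2e-05), with an interaction of 0.76 (SE 0.20, adjusted p = 0.0057), so it passed the adjusted p-value but not the fold threshold. Lrrn3 had -0.38 and -0.86, and Lrrn1 and Lrrn2 were too low to test. No relative of Lrrn4cl was called in any comparison by edgeR (0 at an unadjusted p under 0.05 with a log2 difference of 1 for the interaction, and 0 with DESeq2), with 1 of the 2 counted genes higher by the interaction at any fold, against 14.9% of all genes.

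Lrrn4 is also a marker of mesothelial cells, and the summed markers of that type were, like Lrrn4cl, highest in Lipase Inh. + ISO. The sum of the 7 mesothelial markers was 8.65 to 10.1 CPM in Vehicle, 12.5 to 20.9 in ISO, 8.86 to 9.99 in SR-3420, 9.41 to 11.8 in Lipase Inh. + Vehicle, 21.8 to 23.2 in Lipase Inh. + ISO and 9.22 to 10.7 in Lipase Inh. + SR-3420. The increase came from Lrrn4 and Krt19, the latter at 1.29 CPM in Vehicle, 7.36 in ISO and 7.26 in Lipase Inh. + ISO. Taken singly, neither gene followed Lrrn4cl in all comparisons, and Lrrn4 did so in part. Krt19 had an interaction of -0.23 (adjusted p = 0.79) and rose with SR-3420, by 1.51 (SE 0.41, adjusted p = 0.0043). Lrrn4 had 0.06 with ISO and -0.52 with SR-3420 (SE 0.15, adjusted p = 0.0062). Like Lrrn4cl it was highest in Lipase Inh. + ISO, and its interaction of 0.76 (SE 0.20, adjusted p = 0.0057) had the same direction, under the fold threshold. The defining markers Msln, Upk3b, Wt1 and Upk1b had at most 4, 3, 2 and 3 counts in any library, and Krt8 stayed under 1 CPM on average in all groups. Lrrn4cl itself reached 2518 counts, and the part of these cells in its values was not tested.

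Genes near the 3 loci were examined for the same interaction. Within 50 kb of the spans lay 14 other genes, 13 of them tested, and 0 were called by the interaction in edgeR at the fold threshold. Their interactions lay between -0.06 and 0.92, and 8 of 13 passed the adjusted p-value at any fold, all of them higher, against 14.9% of all genes. Hdac7, a histone deacetylase 9924 bases from Vdr, had an interaction of 0.62 (SE 0.15, adjusted p = 0.0037) and mean levels of 10.8 CPM in Vehicle and 17 in Lipase Inh. + ISO. Beside Cyp2ab1, Parl, a mitochondrial protease, had 0.65 (SE 0.18, adjusted p = 0.010) and Abcc5, a transporter, 0.50 (SE 0.11, adjusted p = 0.0012). Next to Lrrn4cl, Bscl2, which encodes the lipid droplet protein seipin at a distance of 2101 bases, had 0.07 (adjusted p = 0.65), while Uqcc3, a factor of respiratory complex III assembly, had the highest of all neighbours at 0.92 (SE 0.17, adjusted p = 0.00023).

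The pattern over all 18 libraries was compared between genes by Pearson's r of log2 CPM, as a description, since libraries and treatment groups are shared by all points. Vdr and Lrrn4cl had r = 0.984, Vdr and Cyp2ab1 0.945, and Cyp2ab1 and Lrrn4cl 0.903. The genes most like Vdr were Dos (0.995), Xdh (0.992), Uap1 (0.992), Csrp2 (0.991) and Lmbr1 (0.990). Those most like Lrrn4cl were Dos (0.990), Coa5 (0.989), Mpp7 (0.985), Vdr (0.984) and Lmbr1 (0.984). Vdr was thus among the 5 genes most like Lrrn4cl, and Dos and Lmbr1 stood on both lists.

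Likeness in r did not mean likeness in size. Dos changed by 2.35 with ISO and 4.38 under inhibitors, and Uap1, an enzyme of UDP-N-acetylglucosamine synthesis, by 2.26 and 4.48, whereas Xdh, the xanthine dehydrogenase of purine breakdown, changed by 1.07 and 2.59. Uap1 was abundant, at 65.6 CPM in Vehicle and 1617 in Lipase Inh. + ISO. Coa5, an assembly factor of cytochrome c oxidase, had values of 0.51 and 0.94 although its r with Lrrn4cl was 0.989.

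Cyp2ab1 shared none of its 5 most like genes with Vdr or Lrrn4cl. They were Rab35 (0.983), a small GTPase of endocytic recycling, Medag (0.983), a gene of adipocyte differentiation, 1190002N15Rik (0.981), Emb (0.979), which encodes embigin, and Ddah1 (0.978), an enzyme that breaks down methylated arginine. Their changes with ISO alone lay between 0.40 for Ddah1 and 0.96 for Emb, under the fold threshold in each. Under inhibitors the changes of these genes lay between 1.63 for Rab35 and 3.37 for Emb. Emb thus came nearest to Cyp2ab1 in both, from 5.27 CPM in Vehicle to 10.2 in ISO and 54.3 in Lipase Inh. + ISO.

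**Figure D5:**
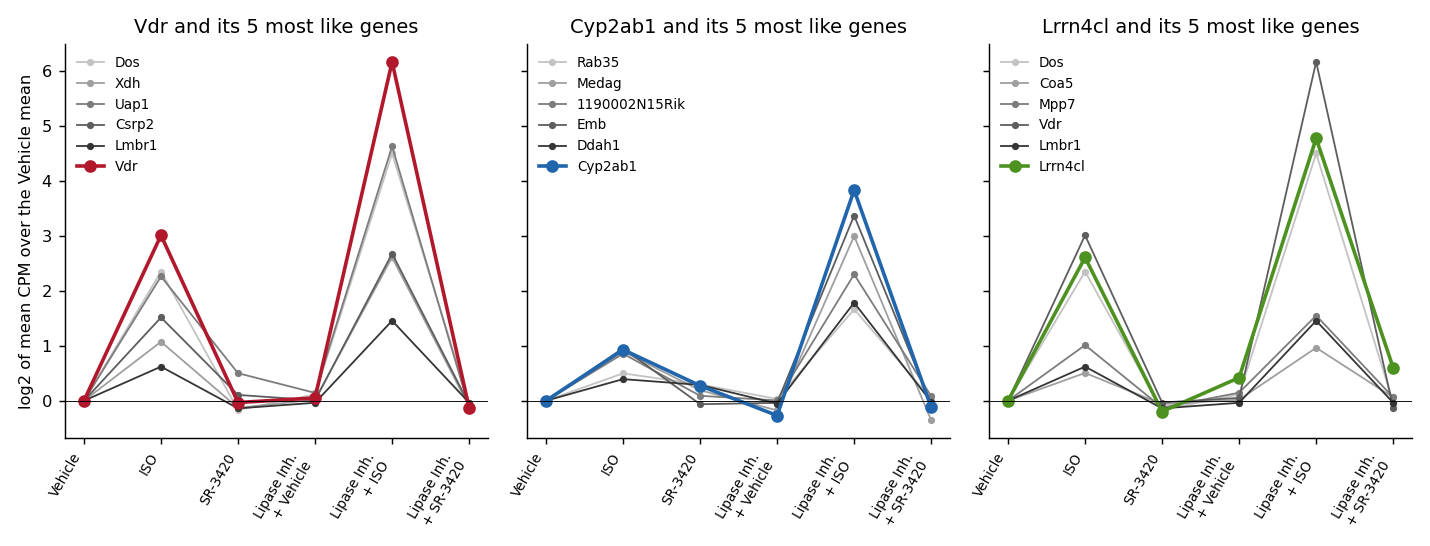
Log2 of the mean CPM of each group over the Vehicle mean, for each of the 3 genes (colour) and its 5 most like genes by Pearson's r over 18 libraries (grey), with lines joining the groups of a gene. The genes around Vdr and Lrrn4cl rise with ISO and rise further in Lipase Inh. + ISO, while those around Cyp2ab1 stay below 1 in ISO and reach their height in Lipase Inh. + ISO.

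The libraries of a group also differed in a way that depended on the gene. Cyp2ab1 was lowest in replicate 2 in 5 of the 6 groups, the exception being Lipase Inh. + ISO, where replicate 2 was highest. Lrrn4cl was lowest in replicate 3 in 5 of the 6 groups, the exception being SR-3420. Vdr showed no such order, with replicates 1, 2 and 3 lowest in 3, 2 and 1 groups. How many of all genes have such an order was not counted, so it is not shown to be particular to these genes. Libraries of numbers 2 and 3 also correlated across groups over all genes (mean r of 0.15 and 0.19). The coefficient of variation in Lipase Inh. + ISO was 0.894% for Vdr, 7.11% for Cyp2ab1 and 5.03% for Lrrn4cl. For Cyp2ab1 it was larger in groups without ISO, with 18.9% in Vehicle, 29.0% in Lipase Inh. + Vehicle and 42.6% in Lipase Inh. + SR-3420. Its libraries ran from 5.77 to 10.4 CPM and from 5.60 to 13.7 CPM in the last 2 of these groups, beside means of 10.4 CPM in Vehicle and 19.8 CPM in ISO.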

How the data were processed

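RNA-seq was performed on 18 libraries in 6 groups, assigned from the sample titles. The authors prepared TruSeq libraries, aligned reads to mm9 with STAR 2.4.2a, made HOMER tag directories with 1 read per position and length, and counted reads per gene with iRNA-seq. They deposited raw whole-number counts, and 0 columns belonged to other samples. Strand use is not stated. The limit on reads per position set no visible ceiling, since Scd1 had 1547349 counts over 4837 counted bases.

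The members and the gene lists were chosen with earlier results of these data known. Counts were analysed with edgeR 4.0.16 in R 4.3.3 (filterByExpr with a minimum count of 10 and a total of 15, TMM, 1 quasi-likelihood model of all 18 samples, Benjamini-Hochberg adjustment over 12156 genes). Calls needed an adjusted p up to 0.05 and a log2 fold change from 1 upwards in either direction. CPM are TMM-scaled and given with the SD over 3 replicates. RPKM divide CPM by the counted length. No molecular identifiers are described, and the exact Poisson interval covers counting error only. The intervals on log2 differences come from the quasi-likelihood model, whose errors also include the spread between replicates. The study speaks of independent experiments. Table starts count from 0 and are printed from 1.

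Named genes were the 3 members, list genes called in an ISO comparison with examples by size of change, the 5 genes with the highest Pearson's r to each member (log2 CPM, prior count 2), genes within 50 kb and those next in rank of interaction. List members of interest that were not called, and single neighbours, were named after their values were seen. The fit was tested on simulated counts. For SR-3420 against Vehicle it recovered 190 of 200 genes changed 3-fold (95.0%) among 12043 tested and called 1 other, and for the interaction with SR-3420 182 (91.0%) among 12025 and 4 others. Alternatives were RLE factors, total counts only, 2 other filters, the replicate number as a block, only the groups compared, DESeq2 1.42.0 and leaving out each library.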

Additional observations from a re-analysis of the deposited data

How the results depend on the processing

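For the 3 genes, the 12 tested changes without ISO stayed on the same side of the threshold under all 300 alternative values, and the lowest adjusted p was 0.0514, for Lrrn4cl with SR-3420 under total-count scaling. The ISO changes kept their sign throughout. Leaving out each library in turn moved the interaction between 3.02 and 3.19 for Vdr, 2.94 and 3.30 for Cyp2ab1, and 1.62 and 1.85 for Lrrn4cl, and moved the change of Cyp2ab1 with ISO alone between 0.83 and 1.07, past the fold threshold without Vehicle replicate 3 (1.07) and without ISO replicate 2 (1.00). Scaling by total counts alone shifted the median of all genes by -0.31 with ISO, -0.23 with ISO under inhibitors and -0.16 with SR-3420. It gave changes with ISO of 2.71 for Vdr, 0.63 for Cyp2ab1 and 2.29 for Lrrn4cl. It also moved the split of called genes from 612 higher and 495 lower to 339 and 1191 with ISO, from 660 and 928 to 439 and 1436 with ISO under inhibitors, from 265 and 573 to 351 and 492 for the interaction, from 482 and 288 to 335 and 501 with SR-3420, from 1 and 5 to 0 and 5 with the inhibitors alone, from 26 and 10 to 16 and 11 with SR-3420 under inhibitors, and from 170 and 294 to 225 and 238 for the interaction with SR-3420.

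Genes called with SR-3420 under inhibitors numbered 36, but 59 without a filter on low counts, and the cause was not tested. In the CREB and cAMP list the interaction called 0 genes higher and 10 lower, against 3 and 9 under total counts, 2 and 11 without a filter and 1 and 11 with DESeq2. In the P450 family the filter of 10 counts in 9 samples left 0 calls with ISO and 1 higher and 0 lower for the interaction, and the call of 1 vitamin D gene lower by the interaction remained in number under each alternative. Without Lipase Inh. + SR-3420 replicate 2 the list counts for the ISO comparisons were the same in number.

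The replicate numbers were not taken as pairs, since no label names a shared experiment and not every same-numbered pair correlated above 0.1. The library names do run through all 6 groups of a replicate number before the next, and the study speaks of independent experiments. Whether the numbers mark those experiments was not settled. The mean correlation of deviations from the group means was -0.01 between libraries of number 1, 0.15 for number 2 and 0.19 for number 3, against -0.05 for different numbers. Of 18 samples 12 correlated best with their own number, all of numbers 2 and 3. With the replicate block the calls were 1122 with ISO, 1603 with ISO under inhibitors, 877 for the interaction, 778 with SR-3420, 9 against 6 with the inhibitors alone, 52 with SR-3420 under inhibitors and 486 for the interaction with SR-3420. The block gave 2 higher and 11 lower genes of the CREB and cAMP list for the interaction, and left the tested changes of the 3 genes on the same side of the threshold. Depth limits Cyp24a1 and other targets at or under 3 counts, for which no change could be seen.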
